A study of Gallus gallus with 12 samples.

Results

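RNA from chick limb-bud mesenchymal cells made to express the transcription factor EGR1 was compared with RNA from the same kind of cells carrying an empty vector. The comparison uses 4 of the 12 libraries of the series, the 2 titled EGR1 and the 2 titled Control, chosen by their titles alone, and 18979 of the 21350 listed features that passed a filter on low counts. The cells came from embryonic day 4.5 limb buds of the Lohmann Selected Leghorn breed and were infected, before seeding, with the replication-competent avian retrovirus RCAS-BP(A), which carried either the coding sequence of EGR1 (the construct named RCAS-BP(A)-EGR1-3F) or no insert (RCAS-BP(A)-empty). They were then grown for 5 days as micromass cultures, dense spots of mesenchyme in which cartilage nodules form among connective tissue cells. The remaining 8 libraries, 2 each for OSR1, OSR2, KLF2 and KLF4 delivered in the same vector, served as a second reference. All 12 libraries, Control included, therefore come from cells infected with the virus and cultured for 5 days, and the RNA of 6 cultures was pooled for each extract. Whether the 2 libraries of a group came from separate cell isolations is not stated, and the p-values therefore reflect the spread among these libraries alone, which may be technical. Which species the EGR1 insert came from is not stated either.

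EGR1 is a zinc-finger transcription factor of the immediate early class, whose gene is switched on within minutes by growth factors, serum or mechanical load and which binds GC-rich DNA near its target genes. Its activity is held back by the NAB corepressors. In chick and mouse embryos, EGR1 is present in developing tendons, and in mammals it acts on collagen and tendon genes. A limb mesenchymal cell can become cartilage, tendon or loose connective tissue, and the micromass culture holds these fates side by side.

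Levels are given as CPM, the standard unit of counts in proportion to the library's total, scaled by the trimmed mean of M-values (TMM), in the order replicate 1, replicate 2. Differences are log2 fold changes with their standard error (SE) from edgeR's quasi-likelihood test in a fit of all 12 libraries, and a gene is called when its Benjamini-Hochberg adjusted p over all 18979 genes is under 0.05. The second reference is the mean of the OSR and KLF groups, and "the other factors" means those 8 libraries. In a mixed culture, fewer cells of a type and less RNA per cell cannot be told apart. Total counts per library were 51233721 and 59297870 in Control, 106079374 and 90175670 with EGR1 and 74139243 to 97733305 in the others. Control libraries stood apart from all 10 factor libraries on the first principal component (-96 to -75.3 against -7.47 to 38.8), and retroviral transcripts made up 3.44% to 3.47% of their counts, against 1.66% to 1.86% in EGR1 and 0.766% to 1.91% in the others. The EGR1 libraries were apart from the rest on the third component, at 33.5 to 40.8 against -17.5 to 9.41, which held 8.01% of the variance. The strand setting of the authors' counting is not given in the sources used here, so reads of overlapping genes on opposite strands cannot be told apart.

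The EGR1 gene itself was at 93.3 and 104 CPM in Control and at 9335 and 7448 CPM in the EGR1 libraries. Every other library lay between 96.5 and 143 CPM, so the label and the gene go together in all 12 libraries. The difference from Control was 6.41 (SE 0.19, adjusted p = 5.6e-08 by edgeR), an 85.2-fold rise, and that from the other factors was 6.14 (SE 0.10, adjusted p = 1.7e-10). Counts of transcripts from the viral insert may be part of this level and cannot be told apart from those of the endogenous gene. NAB1, a corepressor of EGR proteins, was at 84.8 and 82 CPM in Control and at 135 and 139 CPM with EGR1. It rose by 0.72 (SE 0.07, adjusted p = 0.00014), and the 8 other libraries, at 106 to 134 CPM, lay between the groups. Against those, NAB1 was higher by 0.21 (SE 0.06, adjusted p = 0.037), a call lost in 5 of the 10 fits with 1 library left out (without either EGR1 replicate, either KLF4 replicate or OSR2 replicate 1, with an adjusted p of up to 0.249). EGR4, another member of the family, was at 0.281 and 0.248 CPM in Control and at 0.366 and 0.302 CPM with EGR1, and was not called against Control (adjusted p = 0.47). It was below the other factors, at 0.329 to 1.06 CPM, by a difference of -0.99 (SE 0.26, adjusted p = 0.030 by edgeR), a call lost without either EGR1 or either OSR2 replicate (adjusted p up to 0.238).

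Of the 18979 genes, 8559 were called between EGR1 and Control, which is 45.1%, with 4675 higher (24.6%) and 3884 lower (20.5%). By over 2-fold, 1483 genes rose and 866 fell, and by over 4-fold 142 rose and 129 fell. The median log2 difference over all genes was 0.0145. Without Control replicate 1 the count fell to 4698, and without EGR1 replicate 1 it fell to 4597. Against the other factors 2374 genes were called, or 12.5%, with 1323 higher (6.97%) and 1051 lower (5.54%), and without EGR1 replicate 1 or replicate 2 the count was 1027 or 1269. For 1290 of the 1483 genes that rose by over 2-fold and 669 of the 866 that fell, the mean of the EGR1 libraries lay inside the range of the 8 OSR and KLF libraries. Among the 1483 genes, Control replicate 2 was above Control replicate 1 for 1303 (87.9%), and EGR1 replicate 1 was above EGR1 replicate 2 for 1315 (88.7%), where all genes gave 54.7% and 52.5%. The part of this order within the groups in the rises was not tested. Calls named below with their SE held with each library of their comparison left out in turn unless a loss is given. For the 30 lists below in which 5 or more members rose over Control, the lowest count with 1 library left out came without Control replicate 1 or EGR1 replicate 1 in all 30, and for the 15 counts of 5 or more that fell it did so in 13. For the 32 list counts of 5 or more against the other factors, the lowest of the 10 fits with 1 library left out came without an EGR1 replicate in all 32 (replicate 1 in 26, replicate 2 in 11, ties included). Where such a count dropped by over 1.5 times, that lowest count follows it in brackets. Counts under 5 against Control mostly carry no such bracket, and several of them were not kept with 1 library left out. Among these are the falls in ribosomal protein, Notch, TGF-beta and FGF and MAPK feedback genes. The list counts below are to be read beside the shares of all genes, 24.6% higher and 20.5% lower against Control. Against the other factors those shares are 6.97% and 5.54%.

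The largest rises among well-measured genes were led by CELSR2, a cadherin that orients cells within a sheet, at 1.54 and 1.82 CPM in Control and 20.5 and 10.5 CPM with EGR1. It was higher by 3.21 (SE 0.56, adjusted p = 0.0029 by edgeR), with the EGR1 replicates far apart. For CELSR2 the 8 other libraries, at 1.97 to 10.46 CPM, were also above Control. GLUL, the glutamine synthetase, went from 13.5 and 12.8 CPM to 79.4 and 69.5 CPM, a rise of 2.50 (SE 0.09, adjusted p = 4.2e-07). The 8 other libraries, at 49.9 to 107 CPM, also lay above Control for GLUL. ZBTB16, a zinc-finger repressor that patterns the limb skeleton, rose by 2.50 (SE 0.24) and the chloride channel relative CLIC3 by 2.45 (SE 0.24). The guidance cue NTN1 stood at 9.12 and 12.6 CPM in Control and at 57.1 and 44.9 CPM with EGR1, a rise of 2.23 (SE 0.35, adjusted p = 0.0018). EMILIN1, an elastic fibre glycoprotein, and RTKN had differences of 2.59 and 2.32. The EMILIN1 call was lost without either Control replicate or EGR1 replicate 1 (adjusted p up to 0.132), and the RTKN call without Control replicate 1 or EGR1 replicate 1 (up to 0.085). The 8 other libraries also lay above Control for ZBTB16 (9.12 to 21.1 CPM), CLIC3 (6.66 to 55.4 CPM) and NTN1 (33.0 to 112 CPM). They did so as well for EMILIN1 (8.94 to 50.7 CPM) and RTKN (19.6 to 58.9 CPM). None of these genes, nor GLUL, was called against the other factors. DMP1 and IGSF9B are also among the largest rises and are described with the genes that were apart from all other libraries.

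The largest fall was that of CA4, a membrane carbonic anhydrase, from 29.3 and 26.5 CPM in Control to 3.55 and 3.32 CPM with EGR1. The log2 difference was -3.02 (SE 0.20, adjusted p = 1.9e-05 by edgeR). MAT1A, which makes S-adenosylmethionine, fell from 77.9 and 75.3 CPM to 17.3 and 14.5 CPM, a difference of -2.27 (SE 0.15, adjusted p = 1.9e-05). The anion exchanger SLC26A4 went from 16.6 and 14.7 CPM to 3.27 and 2.80 CPM, a difference of -2.37 (SE 0.19), and the zinc and manganese importer SLC39A8 from 16.6 and 15.7 CPM to 3.47 and 3.81 CPM, a difference of -2.15 (SE 0.13). The aldehyde oxidase AOX1 and its relative AOX2P fell by 2.24 and 2.16, the kinase STK32C by 2.22 and the TFIID subunit TAF4B by 2.29. The rule by which these 8 genes were named required both EGR1 libraries to lie below both Control libraries. For CA4, MAT1A, TAF4B, STK32C, SLC26A4 and AOX1 the EGR1 libraries were inside the range of the OSR and KLF libraries, which were also below Control. CHAC1, at 102 and 125 CPM against 9.72 and 22.0 CPM, and DEFB125, at 25.0 and 23.0 CPM against 4.39 and 3.58 CPM, had differences of -2.84 and -2.59. The CHAC1 call was lost without any 1 of the 4 libraries (adjusted p up to 0.168), and the DEFB125 call without Control replicate 1 or either EGR1 replicate (up to 0.0701).

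A smaller set of genes was apart in the EGR1 libraries from Control and from the other factors alike: 323 were higher in both tests and 261 lower in both, while 267 were higher than Control and lower than the other factors and 349 lower than Control and higher than the other factors. The 2 tests share the EGR1 libraries, so these counts are a description. Against the other factors, the gene was called and both EGR1 libraries were above all 8 others for 930 genes (4.90%) and below all 8 for 608 genes (3.20%). In 233 genes called higher in both tests both EGR1 libraries were above the 10 others, and in 148 called lower in both they were below the 10. Over 2-fold in both, 43 genes were higher and 28 lower.

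DPEP2, a membrane dipeptidase that cleaves leukotriene D4 in mammals, was at 5.89 and 5.07 CPM in Control, at 2.13 to 4.91 CPM in the 8 other libraries, and at 19.9 and 20.6 CPM with EGR1. Only the 2 EGR1 libraries were high. The differences were 1.89 from Control (SE 0.13, adjusted p = 2.1e-05) and 2.60 from the other factors (SE 0.09, adjusted p = 1.1e-07 by edgeR). IGSF9B, an immunoglobulin-family adhesion protein of synapses, stood at 6.06 and 4.85 CPM in Control and at 30.2 and 21.8 CPM with EGR1, with 2.94 to 15.6 CPM in the others. It was higher by 2.25 (SE 0.23) than Control and by 1.92 (SE 0.15) than the other factors. DMP1, an acidic phosphoprotein of bone and dentine matrix, was at 1.67 and 1.63 CPM in Control, at 2.15 to 3.29 CPM in the others and at 9.11 and 7.89 CPM with EGR1. Its differences were 2.36 (SE 0.19) and 1.76 (SE 0.12). CELSR2 was higher than the other factors by 1.69 (SE 0.36, adjusted p = 0.017 by edgeR), a call lost without EGR1 replicate 1. EGR1 replicate 2, at 10.53 CPM, was close to the KLF4 libraries, at 9.21 and 10.46 CPM, for CELSR2.

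Further genes, chosen after their values were seen, were also higher in both tests. EGFL7, a secreted regulator of vessel growth that hosts a microRNA in mammals, was at 9.21 and 10.8 CPM in Control, at 6.90 to 12.4 CPM in the others and at 33.7 and 25.2 CPM with EGR1, and was higher by 1.56 in both tests (SE 0.16 and 0.11). The stromelysin-like protease MMP11 went from 8.65 and 10.1 CPM to 30.9 and 25.7 CPM, against 11.3 to 18.1 CPM in the others. The protease ADAMTS8 went from 18.3 and 19.2 CPM to 49.4 and 34.2 CPM, against 18.6 to 26.8 CPM. All 3 were picked from genes in which neither EGR1 library overlapped any of the 10 others. RASL10B, a small GTPase, DISP3, a patched-domain protein, CDH4, a cadherin, and SCNN1G, an epithelial sodium channel subunit, rose over Control by 1.61, 1.2, 1.14 and 1.30 and were higher than the other factors by 1.03, 1.15, 0.96 and 0.84.

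Among genes lower in both tests, the chemokine CXCL14 was at 385 and 378 CPM in Control, at 150 to 198 CPM in the other factors and at 112 and 119 CPM with EGR1. It fell by 1.73 against Control (SE 0.08, adjusted p = 1.8e-06 by edgeR) and was lower than the other factors by a log2 difference of -0.60 (SE 0.06, adjusted p = 0.00011). The Wnt antagonist and co-receptor ligand DKK2 went from 37.5 and 38.3 CPM to 21.8 and 23.1 CPM, below every other library (28.6 to 53.1 CPM), with differences of -0.76 and -0.77. RANBP3L, a nuclear export factor for SMADs in mammals, and FAM20C, the secretory pathway kinase of bone and tooth matrix proteins, were chosen after their values were seen. RANBP3L had differences of -1.25 (SE 0.14) and -1.14 (SE 0.12), and FAM20C, at 122 and 118 CPM against 61.5 and 65.8 CPM, had -0.91 (SE 0.10) and -0.69 (SE 0.09). Both were picked from genes in which each EGR1 library was below all 10 others. For FAM20C the OSR libraries, at 73.0 to 83.5 CPM, were also below Control. The KLF libraries were at 126 to 161 CPM for FAM20C, so its difference of -0.69 joins unequal groups. CD36, the fatty acid transporter, had differences of -0.68 and -1.13. NEFM, a neurofilament protein, was at 3.27 and 3.67 CPM with EGR1, at 6.38 and 6.06 CPM in Control and at 7.36 to 33.0 CPM in the others, and its differences were -0.84 and -2.24.

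**Figure D1:**
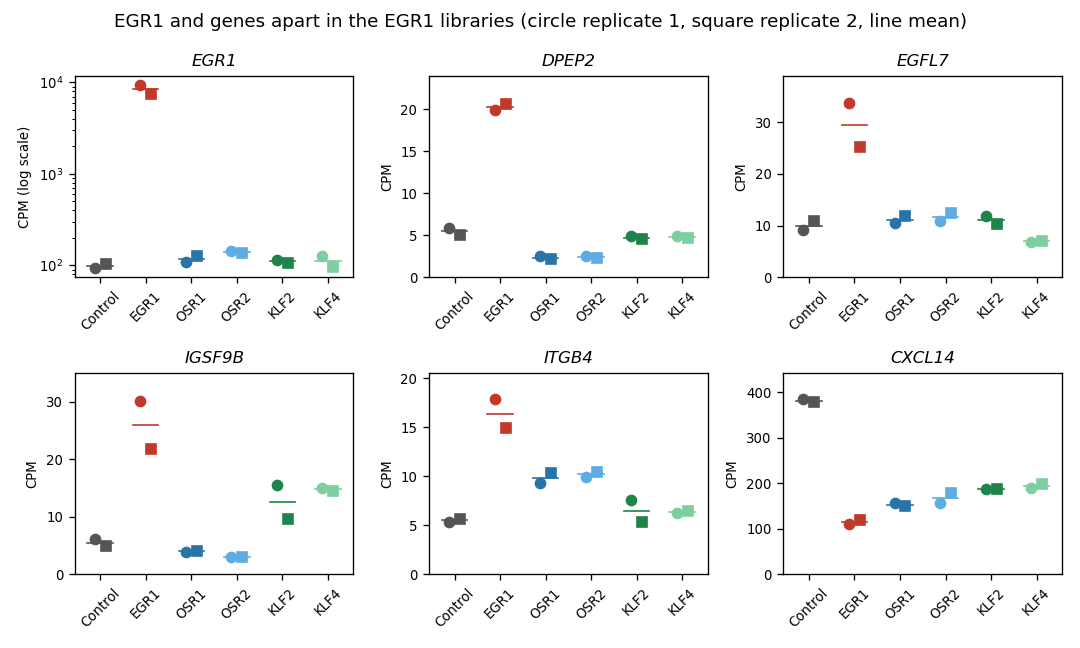
Normalised level (CPM) of EGR1, DPEP2, EGFL7, IGSF9B, ITGB4 and CXCL14 in each of the 12 libraries, by group (circle, replicate 1; square, replicate 2; line, mean of the group), with a log axis for EGR1 and linear axes for the other panels. The EGR1 libraries are the highest of the 12 for EGR1, DPEP2 (19.9 and 20.6 CPM), EGFL7, IGSF9B and ITGB4, and the lowest for CXCL14 (112 and 119 CPM).

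The other genes that stood furthest from the OSR and KLF libraries were at Control-like levels or had moved less. SLC40A1, the iron exporter ferroportin, was at 541 and 553 CPM with EGR1 and at 70.4 to 160 CPM in the other factors, a difference of 2.26 (SE 0.08, adjusted p = 1.1e-07 by edgeR). Control, at 481 and 475 CPM, was close to EGR1 for SLC40A1, with a difference of 0.19 that was not called (adjusted p = 0.17). NRIP3 was at 239 and 215 CPM with EGR1 and 277 and 267 CPM in Control. The OSR libraries were at 6.83 to 23.1 CPM and the KLF libraries at 87.8 to 146 CPM for NRIP3. It was higher than the mean of these unequal groups by 2.60 (SE 0.17). Lower than the other factors in the EGR1 libraries were SCARA5, a ferritin receptor, at 5.00 and 4.84 CPM against 5.30 to 66.6 CPM, CYP1A4, an avian CYP1A enzyme, at 2.05 and 1.54 CPM against 3.24 to 7.93 CPM, and CD7, a lymphocyte surface protein, at 8.67 and 8.66 CPM against 17.7 to 35.0 CPM. SCARA5 and CYP1A4 were nonetheless above Control by 1.25 and 1.21, and the SCARA5 call was lost without Control replicate 1 (adjusted p = 0.0603). TNFSF15, a TNF-family cytokine, and S100A4, a calcium-binding protein of motile fibroblasts, were below the other factors by log2 differences of -1.52 and -1.35. Both means join unequal groups. TNFSF15 was at 38.6 and 42.5 CPM in the KLF4 libraries and 9.12 to 14.4 CPM in the OSR and KLF2 libraries. For S100A4 these were 55.1 and 60.0 CPM and 7.88 to 12.8 CPM. S100A4, at 5.53 and 6.25 CPM with EGR1, was above Control, at 2.94 and 4.13 CPM, by 0.73.

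Of the 18 tendon genes, all measured, 9 rose with EGR1, 4 fell and 5 were not called against Control, with a median difference of 0.56 (all genes 0.0145). The 9 are 50.0% of the list (all genes 24.6%), and the 4 are 22.2%, close to the 20.5% of all genes. The count that rose was 5 to 11 with 1 library left out in turn, and the count that fell 1 to 3. Control replicate 2 was above replicate 1 for all 9 that rose, and EGR1 replicate 1 above replicate 2 for 8 of them. Against the other factors 6 were higher and 3 (1) lower, and in 4 genes both EGR1 libraries were above all 8 others.

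TNMD, the membrane protein tenomodulin of differentiating tendon, was at 106 and 118 CPM in Control and at 220 and 197 CPM with EGR1, with the other factors at 147 to 178 CPM. Both EGR1 libraries were above the 10 others, by 0.90 over Control (SE 0.09, adjusted p = 0.00012) and by 0.37 over the other factors (SE 0.07, adjusted p = 0.0042 by edgeR; 0.0993 without EGR1 replicate 1). THBS4, a thrombospondin of tendon and muscle attachment matrix, was at 1096 and 1120 CPM in Control, at 280 to 1235 CPM in the others and at 1703 and 1716 CPM with EGR1. It was again highest in both EGR1 libraries, by 0.63 (SE 0.11, adjusted p = 0.0017) and 1.56 (SE 0.08, adjusted p = 1.9e-06). The second difference joins unequal groups, with the OSR libraries at 280 to 387 CPM and the KLF libraries at 938 to 1235 CPM for THBS4. TNC, the matrix protein tenascin C, went from 875 and 883 CPM to 1458 and 1360 CPM, a rise of 0.68 (SE 0.11). It was above the mean of the other factors by 0.59 (SE 0.09), which joins unequal groups. The OSR libraries were at 611 to 742 CPM, and the KLF libraries, at 1086 to 1439 CPM, overlapped EGR1. SCX, the transcription factor scleraxis that marks tendon progenitors, was at 1.44 and 1.73 CPM in Control and at 6.74 and 6.16 CPM with EGR1, a difference of 2.02 (SE 0.51, adjusted p = 0.013). The groups did not overlap, yet the SCX call was lost without either Control replicate or EGR1 replicate 1, with an adjusted p of up to 0.0896. The other factors spanned 3.85 to 13.4 CPM, and the EGR1 libraries lay within that range.

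Of the rest, THBS2, a matricellular thrombospondin, rose by 0.64 (SE 0.10) and CILP, a matrix protein of cartilage and tendon, by 0.53 (SE 0.11). CPXM1, a secreted carboxypeptidase-like protein, IGFBP5, a binding protein of insulin-like growth factors, and SIX2, a homeobox factor, rose by 1.25, 1.04 and 0.62. These 3 calls were lost without Control replicate 1 (adjusted p = 0.0523, 0.0587 and 0.0595). EYA2, a phosphatase that is a cofactor of SIX2 and its relatives, was at 88.1 and 88.7 CPM with EGR1 and 77.9 and 79.0 CPM in Control, which was not called, but it was higher than the other factors by 0.47 (SE 0.06). KERA, the proteoglycan keratocan, moved the other way, from 44.5 and 41.8 CPM to 18.2 and 21.8 CPM, a difference of -1.11 (SE 0.13, adjusted p = 0.00026 by edgeR), and was lower than the other factors by a difference of -0.71 (SE 0.11). Those factors were unequal for KERA, with the OSR libraries at 43.9 to 56.9 CPM. The KLF libraries, at 16.6 to 28.0 CPM, overlapped EGR1. MKX, the homeobox factor mohawk, COL14A1, a fibril-associated collagen, and CHODL, a membrane lectin, had differences of -0.38, -0.37 and -0.63, none of which held throughout. The MKX call was lost without replicate 1 of either group, the COL14A1 call without Control replicate 1 or EGR1 replicate 2, and the CHODL call without any 1 of the 4 libraries (adjusted p up to 0.0799, 0.067 and 0.144). MKX and COL14A1 were higher than the other factors, by 0.28 (SE 0.07, adjusted p = 0.026) and 0.24 (SE 0.07, adjusted p = 0.049 by edgeR), and both MKX libraries with EGR1 were above all 8 others. The MKX call was lost without EGR1 replicate 2 or KLF4 replicate 1 (adjusted p up to 0.343), and the COL14A1 call in 8 of the 10 fits, those without either EGR1, OSR2 or KLF4 replicate, OSR1 replicate 2 or KLF2 replicate 2 (up to 0.348).

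**Figure D2:**
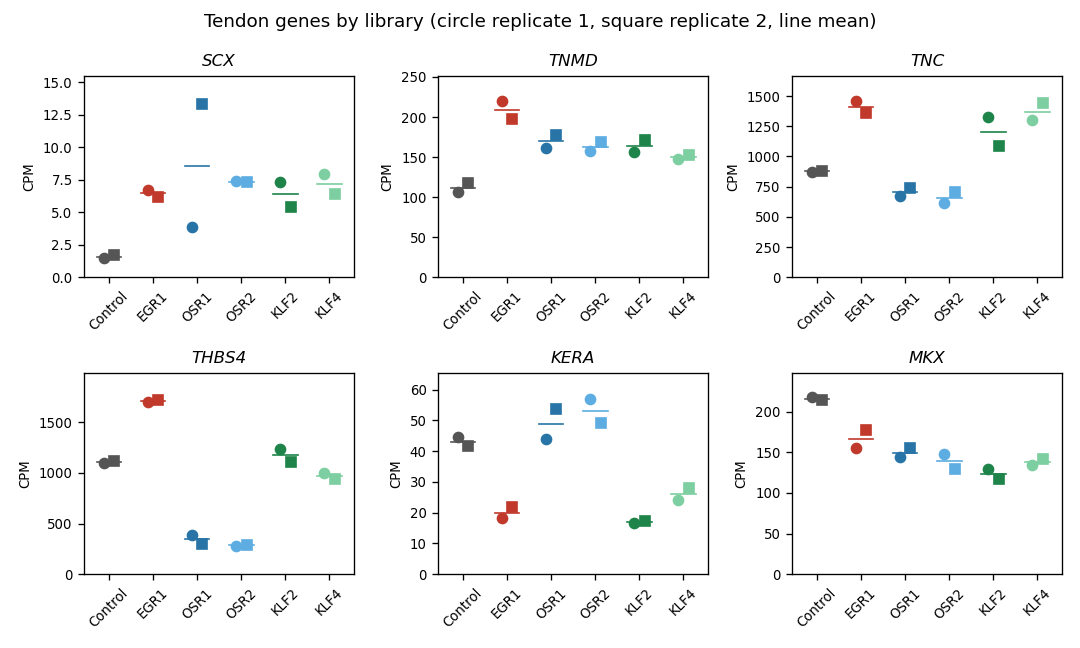
Normalised level (CPM, linear axes from 0) of SCX, TNMD, TNC, THBS4, KERA and MKX in each of the 12 libraries, by group (circle, replicate 1; square, replicate 2; line, mean of the group). The EGR1 libraries are the 2 highest for TNMD (220 and 197 CPM) and THBS4 (1703 and 1716 CPM), while for KERA they lie below both Control libraries.

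Most cartilage genes were higher with EGR1 than in the mean of the other factors, while a smaller number fell below Control. Of 32 tested members of the 34 listed, 28 were higher in EGR1 than in the other factors and none lower. The median was 1.15 (all genes -0.0186), and in 18 both EGR1 libraries were above all 8 others. For some of the rest the KLF libraries overlapped EGR1, while the OSR libraries were lower. MATN4 was at 1329 and 981 CPM with EGR1, 1275 to 1721 CPM in the KLF libraries and 303 to 429 CPM in the OSR libraries. HAPLN1 was at 911 and 811 CPM, 671 to 1110 CPM and 135 to 212 CPM in the same order. With 1 library left out the count of 28 was 24 to 29. Against Control, 2 of the 32 rose, 11 fell and 19 were not called, with a median of -0.22. The count of 11 was 4 to 9 with 1 library left out, and 15 when the libraries were scaled by their totals alone.

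COL2A1, the main fibrillar collagen of cartilage, was at 7595 and 5798 CPM with EGR1, at 3887 and 5100 CPM in Control and at 1039 to 5214 CPM in the others. It was above the other factors by 1.44 (SE 0.13, adjusted p = 6.4e-05 by edgeR), and above Control by 0.58 (SE 0.18, adjusted p = 0.026), a call lost without Control replicate 1 or EGR1 replicate 1 (adjusted p up to 0.198, difference down to 0.37). The 8 other libraries were themselves split for COL2A1, with the 4 OSR libraries at 1039 to 1704 CPM and the 4 KLF libraries at 3958 to 5214 CPM, so the difference from their mean joins unequal groups. SOX9, the transcription factor that drives cartilage formation, stood at 364 and 374 CPM in Control, 487 and 390 CPM with EGR1 and 93.6 to 413 CPM in the others. Its difference was 0.25 from Control, not called, and 1.14 (SE 0.11) from the other factors, which were unequal as well. The KLF libraries, at 276 to 413 CPM, overlapped EGR1 for SOX9, and the OSR libraries were at 93.6 to 155 CPM. ACAN, the proteoglycan aggrecan, was at 1884 and 1481 CPM with EGR1, with Control at 1874 and 1818 CPM and the others at 256 to 1379 CPM. MATN1, the filament-forming matrilin of cartilage, was at 1098 and 895 CPM with EGR1, against 917 and 977 CPM in Control and 49.9 to 410 CPM in the others. For ACAN and MATN1 the differences were -0.13 and 0.07 from Control, not called, and 1.43 (SE 0.13) and 2.50 (SE 0.16) from the other factors. VIT, the matrix protein vitrin, headed the genes highest over the other factors, with a difference of 3.04 (SE 0.19), at 19.0 and 17.0 CPM against 0.475 to 8.08 CPM, with 21.4 and 20.7 CPM in Control. For ACAN the OSR libraries were at 256 to 446 CPM and the KLF libraries at 1073.5 to 1379 CPM. For MATN1 these were 49.9 to 189 and 284 to 410 CPM, and for VIT 0.475 to 1.04 and 4.65 to 8.08 CPM.

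The members that fell below Control with the call kept in each of these fits were EPYC, CLEC3A, COMP and CSGALNACT1. EPYC, a small proteoglycan of growth cartilage, went from 170 and 164 CPM to 60.9 and 67.7 CPM, a difference of -1.38 (SE 0.19, adjusted p = 0.00073 by edgeR). It was still above all 8 other libraries, which were at 7.22 to 52.6 CPM. CLEC3A, a cartilage lectin, went from 30.5 and 30.4 CPM to 16.0 and 17.4 CPM (-0.87, SE 0.14). COMP, the pentameric cartilage matrix protein, went from 104 and 108 CPM to 65.6 and 62.0 CPM (-0.73, SE 0.14). CSGALNACT1, which starts chondroitin sulfate chains, had a difference of -0.51 (SE 0.10). HAPLN1, the link protein that ties aggrecan to hyaluronan, went from 1260 and 1179 CPM to 911 and 811 CPM, a difference of -0.50 (SE 0.13), with the call lost without Control replicate 1 or EGR1 replicate 2 (adjusted p up to 0.07). The 2 members of the list that rose, COL2A1 and the matrilin MATN4 (0.68, SE 0.17), both lost their call without Control replicate 1 or EGR1 replicate 1 (MATN4 with an adjusted p of up to 0.0862).

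**Figure D3:**
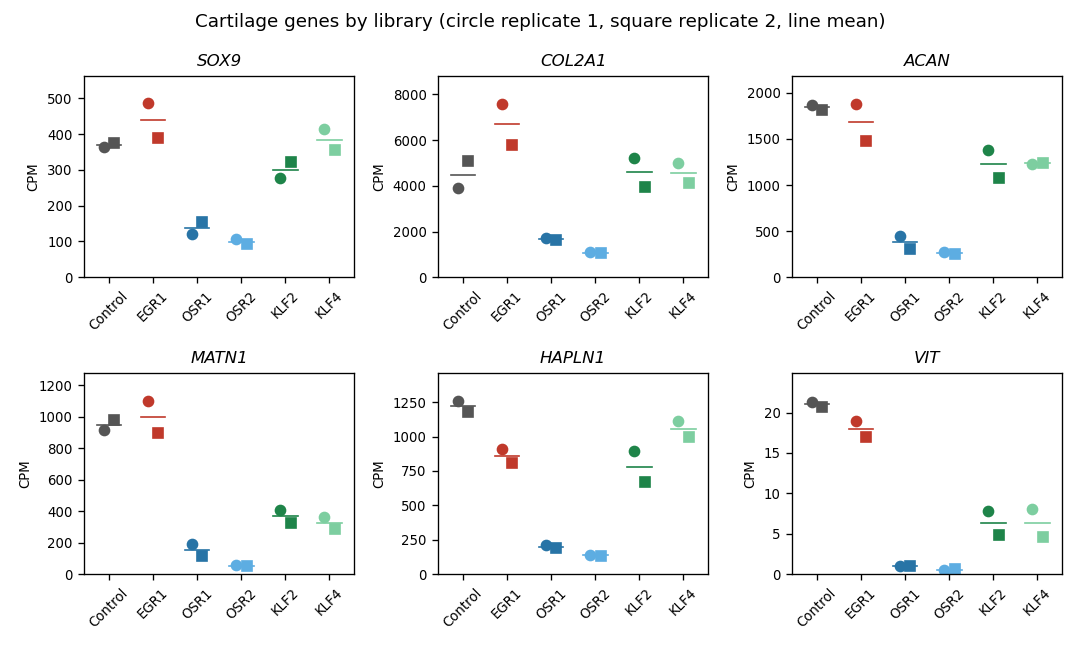
Normalised level (CPM, linear axes from 0) of SOX9, COL2A1, ACAN, MATN1, HAPLN1 and VIT in each of the 12 libraries, by group (circle, replicate 1; square, replicate 2; line, mean of the group). For COL2A1, ACAN, MATN1 and VIT both EGR1 libraries lie above all 8 OSR and KLF libraries, and for HAPLN1 (911 and 811 CPM) below both Control libraries.

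Among 23 tested genes of hypertrophic cartilage and bone, 6 rose, 5 fell and 12 were not called against Control (down to 3 and 3 with 1 library left out), and 6 were higher and 4 (1) lower than in the other factors. Against Control these are 26.1% and 21.7% of the list, close to the 24.6% and 20.5% of all genes. SPP1, the bone phosphoprotein osteopontin, went from 15.7 and 18.8 CPM to 40.9 and 38.4 CPM, a rise of 1.2 (SE 0.14, adjusted p = 0.00026 by edgeR). It was above the mean of the other factors by 1.10 (SE 0.10), which joins unequal groups. The KLF4 libraries, at 37.7 and 40.2 CPM, overlapped EGR1 for SPP1. The KLF2 libraries were at 29.5 and 31.4 CPM, and the OSR libraries lay below Control. RUNX3, a Runt-family factor of maturing cartilage, rose by 0.96 (SE 0.19). With DMP1, described above, these were the members that rose with the call kept in each fit. TNFSF11, the osteoclast-inducing ligand RANKL, and MMP13, the collagenase of hypertrophic cartilage, fell, with differences of -0.83 (SE 0.14) and -0.58 (SE 0.12).

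Genes of the fibrous matrix were split between rises in collagens and elastic fibres and falls in small proteoglycans. Of 16 tested collagens of fibrous connective tissue 9 rose, 3 fell and 4 were not called, with a median of 0.45, and the 9 became 6 to 10 with 1 library left out. Against Control the 9 and 3 are 56.2% and 18.8% of the list, beside 24.6% and 20.5% of all genes. COL1A1, the first chain of type I collagen, was at 793 and 1078 CPM in Control and 3248 and 2271 CPM with EGR1, a rise of 1.56 (SE 0.29, adjusted p = 0.0037 by edgeR). The other factors, at 1932 to 4133 CPM, were also above Control. COL3A1, the fibrillar collagen of loose tissue, went from 648 and 684 CPM to 980 and 873 CPM, a rise of 0.48 (SE 0.08), and was lower than the other factors by a difference of -0.45 (SE 0.07). COL15A1, a collagen near basement membranes, was at 338 and 304 CPM with EGR1 and 334 and 308 CPM in Control, against 91.9 to 204 CPM in the others, from which it differed by 1.16 (SE 0.08). COL24A1, a minor fibrillar collagen, was between the references at 28.0 and 25.6 CPM, with Control at 54.9 and 50.2 CPM and the others at 15.3 to 22.3 CPM. Its differences were -0.97 (SE 0.11) and 0.53 (SE 0.08). Of the 16, 5 (2) were higher and 3 (1) lower than in the other factors.

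Of 24 enzymes that modify and crosslink collagen, 12 rose, 5 fell and 7 were not called against Control, with a median of 0.43. The 12 are 50.0% of the list (all genes 24.6%), and the 5 are 20.8%, close to the 20.5% of all genes. Relative to the other factors 9 were higher and none lower, and in 6 of the 9 both EGR1 libraries were above all 8. With 1 library left out, 5 to 13 rose, and 3 to 9 were higher than the other factors. The oxidases of the lysyl oxidase family LOXL4, LOXL1 and LOX rose by 1.66 (SE 0.32), 0.77 (SE 0.14) and 0.42 (SE 0.08), and the prolyl 3-hydroxylase P3H1 by 0.68 (SE 0.11). SERPINH1, the collagen chaperone, went from 2510 and 2613 CPM to 1219 and 1167 CPM, a difference of -1.10 (SE 0.09, adjusted p = 4.6e-05 by edgeR). The prolyl 4-hydroxylase chains P4HA2 and P4HA1 had differences of -1.04 (SE 0.07) and -0.76 (SE 0.07) and the lysyl hydroxylase PLOD2 -0.71 (SE 0.08). For SERPINH1 and PLOD2 both EGR1 libraries lay between Control and the other factors, and P4HA1, at 633 and 598 CPM against 352 to 611 CPM, was above the other factors by 0.38 (SE 0.06). PLOD1, at 744 and 761 CPM with EGR1 against 435 to 610 CPM in the others, was above them by 0.61 (SE 0.06).

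Of 13 small leucine-rich proteoglycans, which sit on collagen fibrils, 7 fell, 6 were not called and none rose against Control, with a median of -0.44. With 1 library left out, 5 to 7 fell. DCN, or decorin, went from 1142 and 1190 CPM to 742 and 784 CPM, a difference of -0.61 (SE 0.08, adjusted p = 0.00034 by edgeR), and both EGR1 libraries were below the 10 others. OGN, or osteoglycin, had a difference of -0.50 (SE 0.09), LUM, or lumican, -0.53 (SE 0.13, lost without EGR1 replicate 1, adjusted p = 0.0759) and OMD, or osteomodulin, -1.64 (SE 0.23). KERA and EPYC, given above, belong here as well. In the second test 2 were higher and 2 (1) lower than in the other factors. Of 19 elastic fibre genes, 13 rose, 6 were not called and none fell against Control, with a median of 0.84, and 8 to 11 rose with 1 library left out. Relative to the other factors 7 were lower and none higher, with a median of -0.33. ELN, the elastin gene, was at 89.4 and 135 CPM in Control, 354 and 255 CPM with EGR1 and 467 to 1324 CPM in the others. It rose by 1.44 (SE 0.25) and was lower than the other factors by a difference of -1.26 (SE 0.21, lost without EGR1 replicate 2, adjusted p = 0.0688). The microfibril genes FBN1, LTBP2 and MFAP5 had the same order, with rises of 0.83, 1.12 and 0.41 over Control and differences of -0.65, -0.83 and -1.04 from the other factors.

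Among 28 fibroblast and matricellular genes 17 rose, 4 fell and 7 were not called against Control (10 to 15 rose with 1 library left out), and 4 (1) were higher and 7 (3) lower than in the other factors. FN1, or fibronectin, went from 3689 and 3663 CPM to 9679 and 9379 CPM, a rise of 1.37 (SE 0.17, adjusted p = 0.00034 by edgeR), inside the range of the other factors. The growth factor MDK rose by 1.12 (SE 0.13) and the surface protein THY1 by 1.08 (SE 0.17). NOV, a CCN-family protein, had a difference of -0.75 (SE 0.09), and NT5E, the ecto-nucleotidase CD73, of -0.77 (SE 0.15). POSTN, the matrix protein periostin, was at 203 and 237 CPM with EGR1, 187 and 205 CPM in Control and 309 to 425 CPM in the others, and was below those by a difference of -0.72 (SE 0.08).

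More genes of contractile cells and of cell adhesion rose than fell against Control. Of 23 smooth muscle genes 14 rose, 3 fell and 6 were not called against Control (10 to 13 rose with 1 library left out), and none was higher and 5 (1) were lower than in the other factors. TAGLN, an actin-binding protein of smooth muscle, was at 86.2 and 122 CPM in Control and 369 and 362 CPM with EGR1, a rise of 1.81 (SE 0.22, adjusted p = 0.00058 by edgeR), with the others at 338 to 596 CPM. ACTG2, CNN1 and MYL9, also parts of the contractile apparatus, rose by 1.83, 1.42 and 1.07. PLN, the calcium pump inhibitor phospholamban, fell from 4.18 and 4.56 CPM to 1.07 and 1.03 CPM. Of 40 integrin and basement membrane genes 25 rose, 5 fell and 10 were not called (17 to 20 rose and as few as 1 fell with 1 library left out), with a median of 0.63, and 9 were higher and 4 (2) lower than in the other factors. ITGB4, the integrin chain of hemidesmosomes, was at 17.9 and 14.9 CPM with EGR1 against 5.31 and 5.68 CPM in Control and 5.28 to 10.5 CPM in the others. It was higher by 1.57 (SE 0.17) and 1.03 (SE 0.12). ITGA1, a collagen-binding integrin chain, was at 174 and 189 CPM against 120 and 111 CPM in Control and 111 to 141 CPM in the others, with differences of 0.65 (SE 0.10) and 0.53 (SE 0.08). COL4A2 and LAMB1, of basement membrane, rose by 0.98 (SE 0.07) and 0.85 (SE 0.10).

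Of 36 tested genes of glycolysis and the hypoxia response, 20 fell with EGR1 against Control, 4 rose and 12 were not called, with a median of -0.35, and 17 to 19 fell with 1 library left out. LDHA, the lactate dehydrogenase chain that turns pyruvate into lactate, was at 752 and 744 CPM in Control and 174 and 172 CPM with EGR1, a difference of -2.11 (SE 0.10, adjusted p = 2.6e-06 by edgeR). The OSR and KLF libraries were at 150 to 202 CPM, so all 10 factor libraries were below Control. SLC16A3, the lactate exporter MCT4, went from 348 and 331 CPM to 82.9 and 85.4 CPM, a difference of -2.01 (SE 0.13), and was above all 8 others (38.7 to 71.7 CPM) by 0.64 (SE 0.10). VEGFA, the vascular growth factor induced by low oxygen, fell by 1.21 (SE 0.09), NDRG1 by 1.22 (SE 0.11), and the pyruvate dehydrogenase kinase PDK1 by 0.82 (SE 0.10). PFKL, the liver-type phosphofructokinase chain, rose by 1.09 (SE 0.18) and the vasodilator peptide gene ADM by 1.07 (SE 0.22). In the second test 7 (3) of the 36 were higher and none lower than in the other factors.

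Of 37 genes of amino acid supply and endoplasmic reticulum stress, 23 fell, 4 rose and 10 were not called against Control, with a median of -0.39, and 17 to 21 fell with 1 library left out. ASNS, the asparagine synthetase, went from 424 and 414 CPM to 130 and 130 CPM, a difference of -1.69 (SE 0.11, adjusted p = 1.9e-05 by edgeR). SLC7A11, the cystine importer, went from 89.6 and 87.4 CPM to 28.2 and 25.3 CPM, a difference of -1.73 (SE 0.12), and PSPH, the last enzyme of serine synthesis, from 53.9 and 59.7 CPM to 15.5 and 13.1 CPM, a difference of -1.99 (SE 0.17). The chaperone HSPA5 and the stress transcription factor XBP1 fell by 0.80 and 0.97. For ASNS, SLC7A11 and XBP1 the EGR1 libraries were inside the range of the OSR and KLF libraries. Of the 37, 5 (2) were higher and 2 (1) lower than in the other factors. Among 29 genes of sterol and fatty acid synthesis, 17 rose, none fell and 12 were not called, but with 1 library left out 6 to 17 rose, the fewest without EGR1 replicate 1. In all 17, EGR1 replicate 1 was above replicate 2. LSS, the lanosterol synthase, went from 119 and 123 CPM to 234 and 185 CPM, a rise of 0.80 (SE 0.13), and FASN, the fatty acid synthase, rose by 0.45 (SE 0.09). Of the 29, 2 (1) were higher than in the other factors and none lower.

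**Figure D4:**
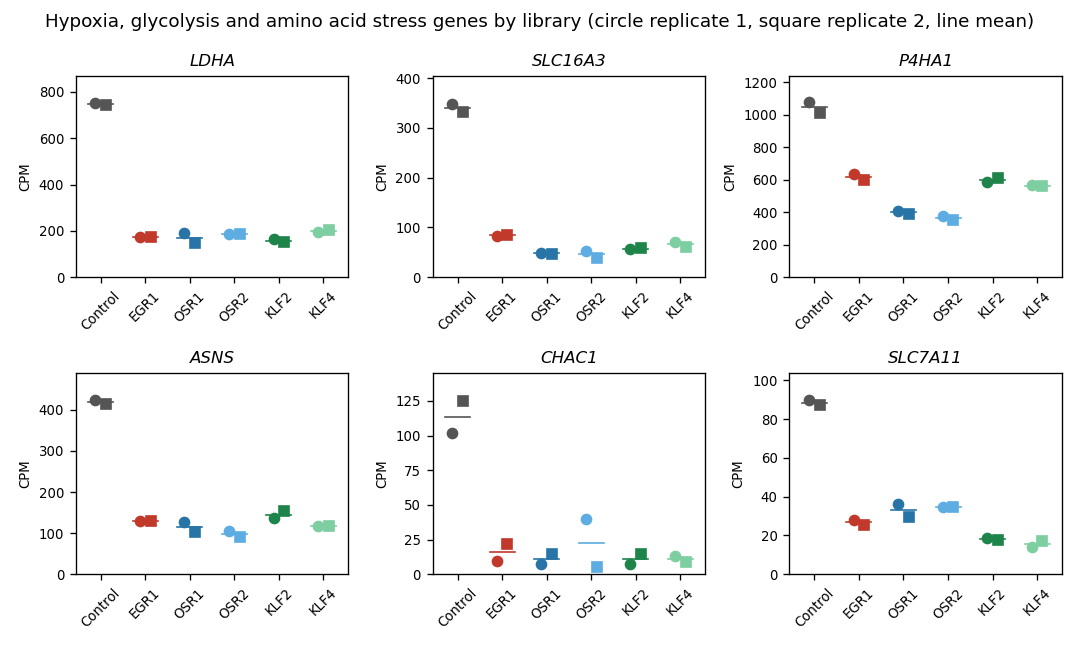
Normalised level (CPM, linear axes from 0) of LDHA, SLC16A3, P4HA1, ASNS, CHAC1 and SLC7A11 in each of the 12 libraries, by group (circle, replicate 1; square, replicate 2; line, mean of the group). All 10 factor libraries lie below both Control libraries in each panel, and for LDHA the EGR1 libraries, at 174 and 172 CPM, are within the range of the OSR and KLF libraries.

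Of 23 other immediate early genes, 13 rose, 3 fell and 7 were not called against Control, with a median of 0.62, and 9 to 12 rose with 1 library left out. SRF, the serum response factor that itself drives EGR1 transcription, went from 30.9 and 40.1 CPM to 111 and 82.9 CPM, a rise of 1.45 (SE 0.23, adjusted p = 0.0019 by edgeR). NR4A2 and NR4A3, orphan nuclear receptors, rose by 1.43 (SE 0.27) and 0.84 (SE 0.17), the antiproliferative gene BTG2 by 0.80 (SE 0.10) and the matricellular gene CYR61 by 0.71 (SE 0.12). ATF3, a stress-induced repressor, went from 45.8 and 47.0 CPM to 12.1 and 16.0 CPM, a difference of -1.72 (SE 0.14), and MYC fell by 0.69 (SE 0.11). The FOS gene, at 5.63 and 7.03 CPM against 6.85 and 7.00 CPM, was not called. Of the 23, 1 was higher than in the other factors, the antiproliferative gene BTG1 (0.45, SE 0.06), and 4 (1) were lower.

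Of 29 tested genes reported as EGR1 targets in mammalian cells, 17 rose, 5 fell and 7 were not called against Control, with a median of 0.41. With 1 library left out 10 to 16 rose and as few as 3 fell, and 13 rose when libraries were scaled by their totals alone. Relative to the other factors 6 (3) were higher and 2 (1) lower. FN1, SPP1, TNC and TGFBI, a collagen-binding matrix protein, were among those that rose, TGFBI from 845 and 894 CPM to 1455 and 1479 CPM (0.75, SE 0.11). PDGFB, a growth factor chain, rose by 1.14 (SE 0.15), and CDKN1A, the cell cycle inhibitor p21, by 0.93 (SE 0.18). PDGFB was nonetheless below all 8 other libraries, at 11.1 and 9.83 CPM with EGR1 against 11.3 to 18.2 CPM. Its difference from the other factors was -0.47 (adjusted p = 0.023 by edgeR). TGFB1, from 6.86 and 11.5 CPM to 30.8 and 22.6 CPM, had a difference of 1.54 (SE 0.43, adjusted p = 0.020 by edgeR), with the call lost without Control replicate 1 or EGR1 replicate 1 (adjusted p up to 0.131). HPSE, the heparan sulfate-cleaving heparanase, was at 7.50 and 5.85 CPM with EGR1, 4.37 and 5.15 CPM in Control and 0.718 to 3.75 CPM in the others. It was not called against Control (0.49, adjusted p = 0.11) and was above the other factors by 2.05 (SE 0.17). FGF2, a fibroblast growth factor, fell by 0.36 (SE 0.07).

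In the TGF-beta pathway 15 of 31 genes rose, 1 fell and 15 were not called against Control (8 to 17 rose with 1 library left out), and 3 (0) were higher and 7 lower than in the other factors. The ligand TGFB3 went from 352 and 384 CPM to 631 and 584 CPM, a rise of 0.72 (SE 0.08, adjusted p = 0.00019 by edgeR), and TGFB2 rose by 0.37 (SE 0.07). The signal transducer SMAD4 rose by 1.45 (SE 0.22) and the receptor ACVR2A by 0.52 (SE 0.07). SKIL, a repressor of the pathway, and the co-receptor TGFBR3 were not called against Control and were below the other factors by differences of -0.42 and -0.72. Among 39 BMP pathway genes 14 rose (35.9%, all genes 24.6%), 9 fell (23.1%, all genes 20.5%) and 16 were not called against Control (8 to 13 rose with 1 library left out), with 9 higher and 12 (6) lower than in the other factors. Of the ligands, BMP4 went from 9.60 and 10.9 CPM to 23.6 and 21.9 CPM, a rise of 1.15 (SE 0.17). GDF10 and GDF2 were in between the references. GDF10 was at 110 and 103 CPM with EGR1, 166 and 156 CPM in Control and 5.69 to 65.8 CPM in the others, with differences of -0.60 (SE 0.12) and 2.20 (SE 0.09). GDF2 was at 9.40 and 9.56 CPM, 21.3 and 19.9 CPM in Control and 0.295 to 6.43 CPM in the others. BMP5 was at 23.4 and 24.2 CPM with EGR1 and below all 8 others (26.6 to 124 CPM) by a difference of -1.03 (SE 0.07). The antagonist NOG, or noggin, rose from 12.2 and 14.9 CPM to 29.5 and 24.8 CPM, above all 10 other libraries, by 1.00 (SE 0.16).

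Of 50 WNT pathway genes 19 rose, 7 fell and 24 were not called against Control (9 to 17 rose and as few as 4 fell with 1 library left out), and 6 (3) were higher and 14 (8) lower than in the other factors. The secreted antagonist SFRP5 was at 3.93 and 3.02 CPM with EGR1, 0.713 and 0.941 CPM in Control and 0.838 to 2.14 CPM in the others, with differences of 2.07 (SE 0.23) and 1.44 (SE 0.16, adjusted p = 0.00016 by edgeR). The ligand WNT4 rose from 4.48 and 4.95 CPM to 11.9 and 9.61 CPM, by 1.19 (SE 0.18), and the receptor FZD5 by 1.98 (SE 0.26). WNT9A, a ligand of joint formation, was at 24.3 and 24.8 CPM with EGR1, 22.4 and 22.7 CPM in Control and 33.3 to 50.1 CPM in the others. It was below the other factors by a difference of -0.77 (SE 0.07). The antagonist WIF1, the receptor LGR5 and its ligand RSPO3 fell below Control by 0.82, 0.60 and 0.72. FRZB, an antagonist made by cartilage, was not called against Control and was above the other factors by 1.00 (SE 0.08).

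Of 24 Notch pathway genes 13 rose, 2 fell and 9 were not called against Control (8 to 13 rose with 1 library left out), with 1 (0) higher and 4 (1) lower than in the other factors. The receptor NOTCH1 went from 67.6 and 71.6 CPM to 195 and 147 CPM (1.30, SE 0.24), the receptor modifier LFNG from 54.0 and 61.9 CPM to 160 and 141 CPM (1.38, SE 0.16) and the ligand JAG1 rose by 0.43 (SE 0.10). Of 15 Hedgehog pathway genes 9 rose, 2 fell and 4 were not called (8 to 9 rose with 1 library left out), with 5 (1) higher and none lower than in the other factors. The transducer SMO rose by 0.99 (SE 0.15), the transcription factor GLI1 from 13.5 and 17.2 CPM to 41.6 and 29.6 CPM by 1.21 (SE 0.25), and the decoy receptor HHIP fell by 0.92 (SE 0.11). PTCH1, the Hedgehog receptor and a target of the pathway, was at 228 and 202 CPM with EGR1, 238 and 213 CPM in Control and 54.3 to 177 CPM in the others, above which it stood by 1.09 (SE 0.07). Of 25 feedback genes of FGF and MAPK signalling 15 rose, 2 fell and 8 were not called (9 to 12 rose with 1 library left out), with none higher and 4 (0) lower than in the other factors. The ETS factors ETV5 and ETV4 rose by 1.65 (SE 0.20) and 0.96 (SE 0.10), the phosphatase DUSP8 by 1.16 (SE 0.16) and the inhibitor SPRY2 by 0.60 (SE 0.12). All 8 other libraries also lay above Control for ETV5 (38.6 to 68.2 CPM) and DUSP8 (45.5 to 69.4 CPM). ETV4, at 30.9 and 27.4 CPM with EGR1, was below all 8 (31.2 to 44.4 CPM). Its difference from the other factors was -0.37 (adjusted p = 0.0083 by edgeR), a call that did not hold with each library left out.

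Among 50 ligands, receptors and binding proteins of the FGF, PDGF, EGF, IGF and VEGF families 16 rose, 11 fell and 23 were not called against Control (as few as 10 and 7 with 1 library left out), and 11 (7) were higher and 8 (2) lower than in the other factors. Against Control these are 32.0% and 22.0% of the list, the second close to the 20.5% of all genes and the first above their 24.6%. FGFRL1, a decoy FGF receptor, went from 508 and 518 CPM to 846 and 799 CPM, above the 413 to 642 CPM of the others, by 0.68 in both tests (SE 0.09 and 0.06). The ligand PDGFD went from 151 and 160 CPM to 219 and 219 CPM, above the 130 to 166 CPM of the others, with differences of 0.49 (SE 0.07) and 0.54 (SE 0.05, adjusted p = 5.1e-05 by edgeR). The receptor ERBB2 rose by 1.85 (SE 0.28) and FGFR1 by 1.06 (SE 0.15). The VEGF-family ligand FIGF fell by 1.02 (SE 0.17). Of 15 retinoic acid genes 8 rose, 1 fell and 6 were not called (4 to 7 rose with 1 library left out), with 1 (0) higher and 7 (4) lower than in the other factors. The receptor RARA rose by 1.39 (SE 0.25). The binding protein CRABP2 was at 21.6 and 22.8 CPM with EGR1, between 13.2 and 16.2 CPM in Control and 41.1 to 71.5 CPM in the others, with differences of 0.60 (SE 0.12) and -1.30 (SE 0.10).

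Of 43 guidance genes 24 rose, 2 fell and 17 were not called against Control (18 to 22 rose with 1 library left out), with 7 (2) higher and 11 (5) lower than in the other factors. NTN4, a basement membrane netrin, went from 13.2 and 14.2 CPM to 33.1 and 30.7 CPM (1.21, SE 0.11, adjusted p = 6.6e-05 by edgeR), the ligand EFNB2 from 23.2 and 26.4 CPM to 50.0 and 54.0 CPM (1.07, SE 0.10), and the semaphorin SEMA3G rose by 2.54 (SE 0.27). SEMA3G was at low levels, 0.300 and 0.231 CPM in Control and 1.82 and 1.25 CPM with EGR1. The 8 other libraries, at 0.756 to 2.23 CPM, were also above Control for SEMA3G. EPHA5, an ephrin receptor, fell by 1.01 (SE 0.12). Of 30 chemokine and cytokine genes 12 rose, 8 fell and 10 were not called (8 to 11 rose and as few as 3 fell with 1 library left out), with 7 (1) higher and 8 (2) lower than in the other factors. Against Control the 12 and 8 are 40.0% and 26.7% of the list, beside 24.6% and 20.5% of all genes. IL34, a ligand of the macrophage receptor CSF1R, went from 0.544 and 0.644 CPM to 3.34 and 2.96 CPM (2.40, SE 0.25), and IL18 fell from 124 and 117 CPM to 48.3 and 45.7 CPM (-1.36, SE 0.09). Of 42 matrix proteases and inhibitors 19 rose, 9 fell and 14 were not called (13 to 18 rose and as few as 5 fell with 1 library left out), with 11 (7) higher and 11 (4) lower than in the other factors. Against Control the 19 and 9 are 45.2% and 21.4% of the list, the second close to the 20.5% of all genes and the first above their 24.6%. The gelatinase MMP9 rose by 1.88 (SE 0.21) and the inhibitor TIMP2 by 1.04 (SE 0.16). ADAMTS15, at 91.3 and 78.2 CPM with EGR1, lay between 38.6 and 43.1 CPM in Control and 162 to 224 CPM in the others.

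Of 60 tested limb patterning transcription factors 26 rose, 4 fell and 30 were not called against Control (18 to 26 rose with 1 library left out), with 2 (1) higher and 19 (11) lower than in the other factors and a median of -0.29 from them. The OSR1, OSR2 and KLF4 genes are in this list and are the inserts of other groups, so their lower level than in those groups is set by the design. PRRX1, a homeobox factor of limb mesenchyme, was at 166 and 188 CPM in Control, 329 and 292 CPM with EGR1 and 487 to 560 CPM in the others. It rose by 0.81 (SE 0.09) and was below the other factors by a difference of -0.73 (SE 0.07, adjusted p = 0.00011 by edgeR). TBX3, a T-box repressor of the limb margins, had the same order, with 30.5 and 31.9 CPM in Control, 54.1 and 43.5 CPM with EGR1 and 68.9 to 87.6 CPM in the others. EMX2, a homeobox factor of the shoulder region, rose by 0.92 (SE 0.11) and ALX1 fell by 1.61 (SE 0.20). The OSR2 gene went from 10.2 and 13.4 CPM to 32.5 and 26.1 CPM (1.31, SE 0.16). Of 29 tested HOX genes 4 rose, 4 fell and 21 were not called against Control (as few as 1 in each direction with 1 library left out), with a median of 0.02, and none was called against the other factors by edgeR, where 5 had an unadjusted p under 0.05 and DESeq2 called 1. HOXD8 went from 15.6 and 16.8 CPM to 26.0 and 28.7 CPM (0.75, SE 0.12), and HOXA7 fell by 1.85 (SE 0.41).

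Of 52 cell cycle and DNA replication genes 27 rose, 4 fell and 21 were not called against Control, with 1 (0) higher and 1 (0) lower than in the other factors. With 1 library left out 15 to 19 rose, and 17 rose when only library totals set the scaling. The replication helicase subunit MCM5 went from 51.7 and 59.9 CPM to 160 and 116 CPM (1.31, SE 0.20, adjusted p = 0.0015 by edgeR) and the mitotic kinase PLK1 from 75.3 and 77.2 CPM to 122 and 109 CPM (0.60, SE 0.08). CDKN1C, an inhibitor of cyclin-dependent kinases, fell by 0.98 (SE 0.13). Of 66 ribosomal protein genes 27 rose, 2 fell and 37 were not called (8 to 22 rose with 1 library left out), and none was called against the other factors by edgeR, where 0 had an unadjusted p under 0.05 and DESeq2 also called 0. In all 27, Control replicate 2 was above replicate 1. Of 33 interferon response genes 6 rose, 12 fell and 15 were not called (3 to 8 fell and as few as 3 rose with 1 library left out), with 1 higher and 2 (0) lower than in the other factors. TLR3, a sensor of double-stranded RNA, went from 6.23 and 5.22 CPM to 1.97 and 2.17 CPM (-1.47, SE 0.24) and IFIT5, an antiviral RNA-binding protein, from 3.21 and 1.30 CPM to 0.535 and 0.459 CPM (-2.17, SE 0.44, and -1.39 without Control replicate 1). All 4 retroviral entries fell against Control and were higher than in the mean of the other factors, which joins unequal groups. Their share of counts was 1.86% and 1.66% with EGR1. It was 1.68% to 1.91% in the OSR libraries and 0.766% to 1.01% in the KLF libraries. For none of the 4 entries were both EGR1 libraries above all 8 others. The env entry went from 9695 and 10342 CPM to 4585 and 3990 CPM (-1.22, SE 0.09), with 1866 to 4696 CPM in the others. The part of the viral level in the other differences was not tested.

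Markers of the cell types a micromass may hold gave the following. Of 13 limb mesenchyme markers 7 rose, 1 fell and 5 were not called against Control (5 to 7 rose with 1 library left out), with none higher and 6 (2) lower than in the other factors, and the summed level was 1320 and 1363 CPM in Control, 1710 and 1564 CPM with EGR1 and 1921 to 2141 CPM in the others. PRRX2, SHOX2, THY1 and TBX4 rose by 0.81, 1.05, 1.08 and 0.42. TWIST2, a bHLH repressor, had a difference of -0.42 from Control, lost without Control replicate 2 or EGR1 replicate 1 (adjusted p up to 0.0954), and -0.65 from the other factors. TWIST1, at 25.5 and 27.7 CPM with EGR1 and 24.3 and 29.1 CPM in Control, and LHX9, at 112 and 114 CPM against 131 and 122 CPM, were not called. The limb-type factors TBX5, at 241 and 194 CPM with EGR1 and 184 and 199 CPM in Control, and PITX1, at 137 and 138 CPM against 153 and 153 CPM, were not called. PDGFRA, a mesenchymal growth factor receptor, was at 305 and 296 CPM against 327 and 307 CPM, not called, and was below the other factors by a difference of -0.23, a call lost without either EGR1 or either KLF4 replicate (adjusted p up to 0.216).

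Of 47 tested skeletal muscle genes 19 rose, 8 fell and 20 were not called against Control (10 to 20 rose and as few as 4 fell with 1 library left out), with 7 (2) higher and none lower than in the other factors. Their summed level was 2983 and 3137 CPM in Control, 3470 and 3278 CPM with EGR1 and 2655 to 3687 CPM in the others, and MYF5 did not pass the filter. MYL4, an embryonic myosin light chain, rose by 1.15 (SE 0.13) and TNNT3, the fast troponin T, went from 118 and 119 CPM to 41.3 and 47.4 CPM, a difference of -1.42 (SE 0.11, adjusted p = 3.0e-05 by edgeR). MYOD1, the master factor of muscle, was at 8.74 and 7.55 CPM with EGR1 and 13.4 and 14.6 CPM in Control (-0.78, SE 0.24, lost without any 1 of the 4 libraries, with an adjusted p of up to 0.124). Of 17 endothelial markers 2 rose, 2 fell and 13 were not called, with 2 (1) higher and 7 lower than in the other factors, and the summed level was 454 and 447 CPM in Control, 449 and 457 CPM with EGR1 and 427 to 538 CPM in the others. EGFL7 is in that list, but the vascular cadherin CDH5, at 0.960 and 2.0 CPM with EGR1 and 1.07 and 1.02 CPM in Control, was not called, and the VEGF receptor KDR, at 12.4 and 12.5 CPM against 13.5 and 13.4 CPM, was not called either. PECAM1 fell by 1.10 (SE 0.15).

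Of 16 macrophage and blood markers 8 rose, 2 fell and 6 were not called, but with 1 library left out 0 to 4 rose, none of them without Control replicate 1, and against the other factors none was higher and 2 (0) were lower. Their summed level was 107 and 111 CPM in Control, 138 and 133 CPM with EGR1 and 118 to 178 CPM in the others. The leukocyte phosphatase PTPRC went from 6.41 and 7.16 CPM to 8.78 and 11.1 CPM (0.55, SE 0.13, lost without Control replicate 1, adjusted p = 0.0612). Of 17 glial, neuronal and pigment markers 6 rose, 4 fell and 7 were not called (as few as 2 rose without Control replicate 1 or EGR1 replicate 1), with 5 (3) higher and 4 lower than in the other factors, and the summed level was 55.4 and 54.1 CPM in Control, 63.6 and 61.9 CPM with EGR1 and 54.8 to 124 CPM in the others. Against Control the 6 and 4 are 35.3% and 23.5% of the list, beside 24.6% and 20.5% of all genes. SOX10, the defining factor of Schwann cells, was at 0.248 and 0.213 CPM with EGR1 and 0.0563 and 0.264 CPM in Control, and was not called.

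Of 23 ectoderm and epidermal markers only ITGB4 was called against Control, and it was also the only one called against the other factors. Their summed level was 186 and 193 CPM in Control, 188 and 296 CPM with EGR1 and 169 to 775 CPM in the others, so that EGR1 replicate 2 was above replicate 1. The epidermal keratin KRT14 was at 13.2 and 23.6 CPM and the adhesion molecule EPCAM at 2.82 and 7.23 CPM in those libraries, and neither was called. Of 12 adipocyte markers 1 rose, 3 fell and 8 were not called, with 1 (0) higher and 2 (1) lower than in the other factors, and the summed level was 550 and 539 CPM in Control, 551 and 557 CPM with EGR1 and 527 to 615 CPM in the others. For the directions given above as none, HOX genes apart, edgeR's unadjusted p was under 0.05 for 0 to 2 members of each list, and DESeq2 called 0, or 1 for glycolysis and for ectoderm genes lower than in the other factors. PPARG, the main factor of fat cells, went from 7.63 and 8.14 CPM to 2.90 and 3.97 CPM, a difference of -1.20 (SE 0.18, adjusted p = 0.00072 by edgeR), and lay within the range of the others, 2.13 to 4.62 CPM.

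**Figure D5:**
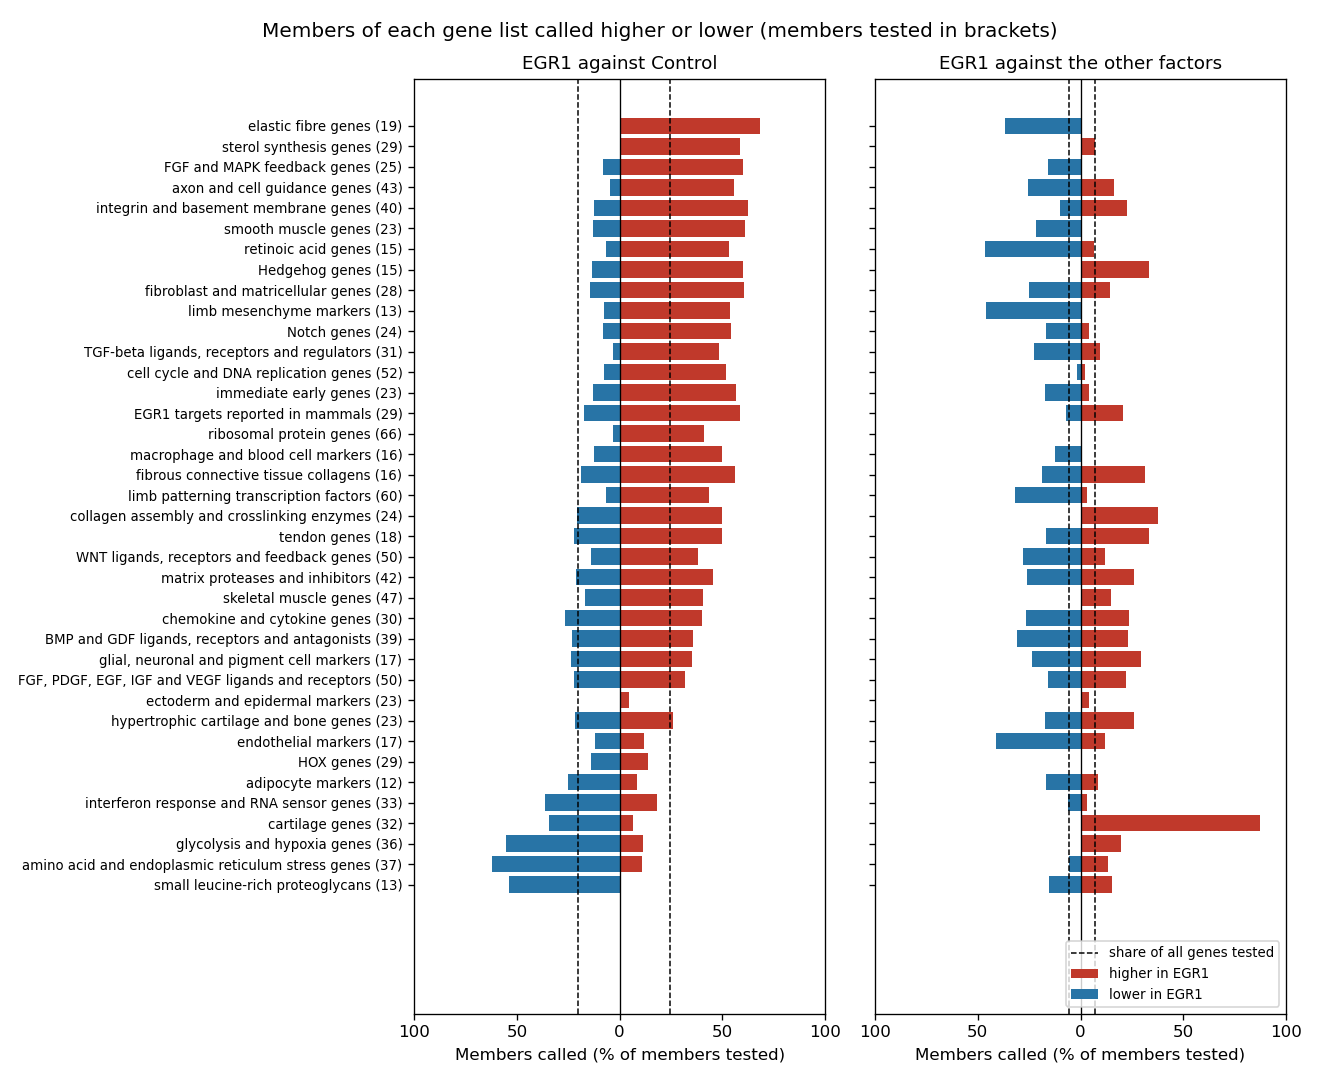
Percentage of the tested members of each of 38 gene lists with 10 or more tested members that were called higher (red, right) or lower (blue, left) in EGR1 libraries, against Control and against the other factors, with the percentage of all 18979 genes as dashed lines (24.6% and 20.5% against Control, 6.97% and 5.54% against the other factors). Elastic fibre, integrin and smooth muscle genes have high percentages called higher than Control, amino acid and glycolysis genes high percentages called lower, and cartilage genes stand out against the other factors with 28 of 32 called higher.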

How the data were processed

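Whole-number counts per gene for 12 libraries were used as the authors deposited them; per the labels' protocols the libraries were stranded poly(A) RNA, read as 50-base pairs. Tools named in the submitters' processing notes, with no versions, are featureCounts, TopHat2, SAMtools and DESeq2, with the galGal4 build. In R 4.3.3, genes were kept by edgeR 4.0.16's filterByExpr (minimum count 10) and scaled by TMM, and 6 groups of 2 libraries were fitted by glmQLFit with the robust option, an option chosen after the data were seen. Tests were two-sided quasi-likelihood F tests with Benjamini-Hochberg adjustment over all 18979 genes. Alternatives used DESeq2 1.42.0 (with limma 3.58.1 loaded by edgeR), other scalings, no filter, thinned counts, a replicate block, a test against 1.5-fold, and each library left out in turn. The genes named are EGR1, the 10 largest rises and falls over Control and the 6 highest and lowest against the other factors among called symbols with at least 5 CPM on average and no overlap of libraries, every tendon and limb mesenchyme gene, and up to 3 called genes in each direction of each of 40 lists by adjusted p. Other genes named were chosen after their values were seen. A few genes under this rule are not reported here. The lists and the comparison were chosen with earlier results of these data known. Sequences and positions were not used here.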

Additional observations from a re-analysis of the deposited data

How the results depend on the processing

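The count of genes called between EGR1 and Control was 8559, and 8080 to 8750 under DESeq2 (8175), DESeq2 size factors (8592), library totals (8559), no low-count filter (8382), thinned counts (8191), the compared libraries alone (8750) and a replicate block (8080). Against the other factors it was 2374, with 2463 under DESeq2 and 2134 under the replicate block. A test against a 1.5-fold change left 1280 and 310 genes. With 1 library left out the counts were 4597 to 7439 and 1027 to 2585, with fewer samples in each of these fits. Scaling by library totals put 45.2% of the calls against Control on the higher side, against 54.6%. Same-numbered EGR1 and Control libraries deviated in opposite directions, with a weak correlation of -0.157 (-0.29 to 0.222 over all pairs of groups). Such a value cannot show whether the numbers pair the libraries, since any difference between replicates within a group enters it. A fit with the pairing crossed called 8397. The crossed pairing and the fit without the robust option (8609 and 2348) were chosen after seeing the data. No gene called in the reported fits had the opposite sign under any of these settings. Of the called genes in the lists and among those named, 362 of 652 against Control and 160 of 350 against the other factors kept their call with each library left out. The number of libraries, 2 per group, limits precision, at a depth of at least 51233721 counts. The differences with Control rest on libraries that also differ from all factor libraries in viral transcripts and total counts, and their part was not tested.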
